A study of Mus musculus with 6 samples.

Results

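The genes described here encode ATP-dependent chromatin remodellers and the families named after their subunits. They were taken from the deposited expression table by symbol: every row whose symbol starts with Smarc, Ino80 or Arid, or with Chd followed by a digit, apart from 2 pseudogene rows marked "-ps". The rule found 40 of 47643 rows: 12 genes of SWI/SNF, 11 rows with a Chd symbol, 6 with an Ino80 symbol, 4 of ISWI and other SNF2 enzymes, and 7 further Arid genes. Chd3os and Ino80dos are among the 40 by symbol, although they are transcripts of the opposite strand and not subunits.

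Remodellers use the energy of ATP to slide, eject or exchange nucleosomes, the histone spools around which DNA is wound. SWI/SNF complexes (BAF) open promoters and enhancers, ISWI and several CHD enzymes space nucleosomes, NuRD joins a CHD ATPase to histone deacetylases, and INO80 acts on nucleosomes that hold the histone variant H2A.Z. In leukaemia driven by MLL fusions, SWI/SNF built around the ATPase SMARCA4 (BRG1) is known to be needed for self-renewal and for expression of Myc.

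RNA was sequenced from L-GMP, sorted leukaemia cells with the surface type of granulocyte-macrophage progenitors, the normal source of granulocytes and monocytes, in mice of the C57BL/6 strain. There were 3 wild-type (WT) libraries and 3 from cells labelled as knockout (KO) of both Prkaa1 and Prkaa2, which encode the alternative catalytic α chains of AMPK, a kinase that senses low cellular energy. The comparison asks which of the remodelling genes differ in RNA level between KO and WT, in a study whose title places AMPK between acetyl-CoA supply and BET proteins, readers of acetylated histones. The labels give no treatment, age, oncogene, deleter strain, number of mice or pooling, and the p-values therefore rest on the spread among the 6 libraries alone, part of which may be technical.

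Values are FPKM as deposited, fragment numbers adjusted for the length of the gene and by a scaling of each library. A spread written with ± is the SD of 3 libraries. Folds are ratios of mean FPKM, and log2 changes are differences, KO minus WT, of log2(FPKM + 1), which understates changes at low levels. A gene is said to have risen or fallen only where limma's adjusted p, over all genes tested, was under 0.05.

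Recovered reads numbered 11390516 to 16416154 per WT library and 12372463 to 14025531 per KO library. The FPKM values were not scaled by these reads alone. Arid4a had 260 reads at 3.64 FPKM in WT replicate 1 and 261 at 3.63 in KO replicate 1. Recovered reads in those libraries were 11390516 and 13872904, so changes as deposited depend on the scaling used. Prkaa1 was at 2.01, 2.20 and 1.80 FPKM in WT and 1.11, 0.735 and 0.548 in KO (log2 change -0.75, adjusted p = 0.00112, having reached the minimum mean of the test through WT alone), and Prkaa2 had 2 reads in WT and 4 in KO, too few to check the label. All 7 markers of granulocyte-macrophage progenitors were detected in both genotypes, 5 of them higher and 2 (Cd34 and Fcgr3) lower in every KO library than in any WT library, although Kit stayed at 0.180 to 0.309 FPKM in WT. Markers of other cells moved with the genotype. The summed level of 6 neutrophil markers was 299.95 to 315 FPKM in WT and 71369.5 to 72764 in KO, with 6 of 6 higher. That of 6 basophil, mast cell and eosinophil markers was 26.9 to 33.3 and 533 to 564 (6 of 6 higher, with Epx, Fcer1a and Prss34 at 0 in WT). For 5 erythroid markers it was 11.0 to 13.7 and 55.4 to 56.4 (5 of 5 higher, with Epor and Gata1 at 0 in WT), and for 4 monocyte markers 378 to 394 and 105 to 116 (3 of 4 lower, with Ccr2 at 0 in KO). Nearly all of the monocyte sum was Ly6c2. The remaining monocyte marker, Csf1r, was higher in KO, at 0 to 0.0145 FPKM in WT and 0.111 to 0.251 in KO. The 5 summed B cell markers were at 52.2 to 57.3 FPKM in WT and 1.94 to 3.25 in KO, nearly all of it Cd79b, with Pax5 at 0 throughout. The 4 megakaryocyte markers summed to 4.98 to 5.89 and 12.9 to 14.1 FPKM. T cell markers summed to 2.12 to 2.26 FPKM in WT and 0.709 to 1.23 in KO. Endothelial markers, nearly all Pecam1 in WT, summed to 2.13 to 2.78 and 0 to 0.0173, and stromal markers to at most 0.103. The part of these differences in the results below was not tested, and in bulk RNA fewer cells of a type and less RNA per cell cannot be told apart.

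Of the 40 rows, 23 reached the minimum mean of 1 FPKM and were tested, 17 lay under it, and 2 of those 17 (Smarca1 and Arid3c) were listed at 0 in all 6 libraries. In KO, 5 of the 23 were higher (Smarcd2, Chd4, Ino80b, Smarca5 and Arid5a), 11 were lower and 7 did not pass. The 11 include Arid3a, which reached the minimum mean through WT alone. Among all 9108 genes tested, 38.0% were higher and 40.4% lower, 78.4% in all, so most genes differed and a count near these shares is not a result about remodellers. The median log2 change was -0.10 over the 23 and -0.02 over all genes tested. The KO and WT values did not overlap in 17 of the 23, where 80.6% of all genes tested did not overlap. The balance of directions depends on how the libraries are scaled. With each library rescaled to the same FPKM sum, which moved the median of all genes to -0.41, 3 of the 23 were higher (Smarcd2, Smarca5 and Arid5a) and 17 lower, against 22.8% and 59.1% of all genes. Of calls over all genes, 48.5% were in the higher direction as deposited and 27.8% after rescaling. The sums were higher in KO, in part through the neutrophil markers given above. Rescaling therefore lowers every KO value against WT, so it can put a rise in doubt but can only deepen a fall.

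**Figure D1:**
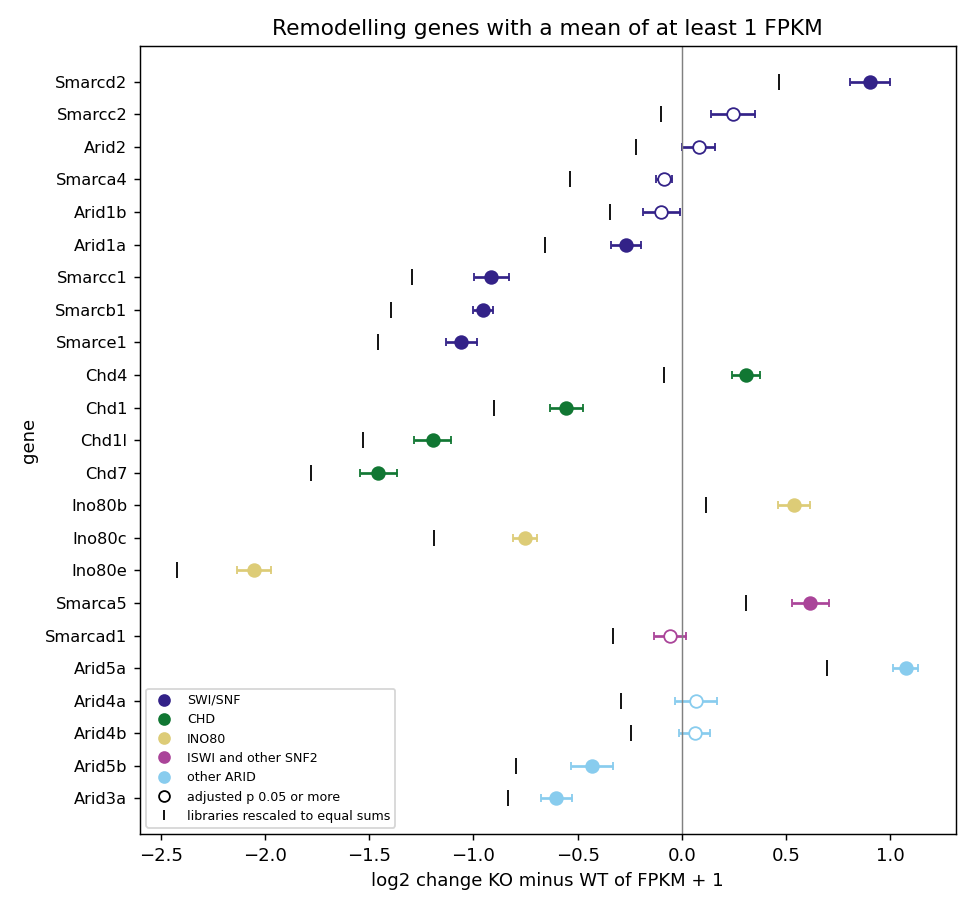
Log2 change of FPKM + 1, KO minus WT, for the 23 tested remodelling genes, by complex; points are limma estimates, bars are ± 1 SE, open points have an adjusted p of 0.05 or more, and black ticks are the estimates after rescaling each library to equal sums. Each complex with more than 2 tested genes has points on both sides of 0 as deposited, and Smarcd2, Smarca5 and Arid5a stay well right of 0 after rescaling.

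The genes with the largest log2 change among the tested genes of 3 groups (INO80, ISWI and other SNF2, and the further ARID genes) and the pair of SWI/SNF ATPases carry the contrasts described next. They are given here by the 150 bases before a RefSeq start site. Sequences are from RefSeq on GRCm38.p6, the build called mm10, and read 5′ to 3′ on the gene's strand. That start site is the GENCODE gene start for Smarca4 and Arid5a. It lies inside the gene by 110 bases for Smarca2, 38 for Smarca5 and 5 for Ino80e. The stretches are therefore not equivalent, and both matches marked in Smarca2 lie inside its gene. Capitals mark matches, on either strand, to the 6 motifs searched: the E-box CACGTG, the GC box GGGCGG, the CCAAT box CCAAT, the ETS core CCGGAAG, the cyclic AMP element TGACGTCA and the TATA box TATAAA, none of which contains another.
Smarca4 (chr9:21616019-21616168, plus strand): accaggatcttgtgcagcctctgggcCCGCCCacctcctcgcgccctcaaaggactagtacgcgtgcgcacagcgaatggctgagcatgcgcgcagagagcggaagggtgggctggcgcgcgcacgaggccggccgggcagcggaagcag
Smarca2 (chr19:26605010-26605159, plus strand): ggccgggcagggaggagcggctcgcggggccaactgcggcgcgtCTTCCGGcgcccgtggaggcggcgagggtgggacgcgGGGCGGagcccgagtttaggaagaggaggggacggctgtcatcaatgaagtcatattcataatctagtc
Ino80e (chr7:126862373-126862522, minus strand): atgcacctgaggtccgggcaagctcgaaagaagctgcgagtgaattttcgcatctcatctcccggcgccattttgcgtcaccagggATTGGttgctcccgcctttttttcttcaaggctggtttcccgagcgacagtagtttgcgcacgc
Smarca5 (chr8:80739460-80739609, minus strand): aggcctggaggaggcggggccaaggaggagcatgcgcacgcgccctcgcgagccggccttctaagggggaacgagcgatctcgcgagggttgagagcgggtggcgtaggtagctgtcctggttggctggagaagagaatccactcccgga
Arid5a (chr1:36307583-36307732, plus strand): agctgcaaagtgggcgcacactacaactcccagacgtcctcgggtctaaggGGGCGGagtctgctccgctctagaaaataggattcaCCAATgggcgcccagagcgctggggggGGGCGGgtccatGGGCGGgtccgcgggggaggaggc
These stretches were rich in G and C (70.0, 67.3, 55.3, 66.7 and 66.7% in the order printed) and held 11 to 17 CpG pairs each. None held an E-box, a cyclic AMP element or a TATA box. Arid5a had 3 GC boxes and a CCAAT box, Ino80e a CCAAT box, Smarca4 a GC box, and Smarca2 a GC box and an ETS core. Smarca5, which rose as Arid5a did, held none of the 6. Over the full windows of 300 bases, 29 of the 40 rows had 37 promoter entries. Of these 37, 28 held a GC box (75.7%, against 35.7% of all 32851 entries), 12 a CCAAT box (32.4% against 37.4%), 5 an ETS core (13.5% against 8.86%), 2 a TATA box (5.41% against 13.6%), 1 an E-box (2.70% against 7.15%) and 0 the cyclic AMP element (1.79% of all). Their median GC content was 65.3%, against 52.7% for all entries. A match is a description of the letters and not a binding site.

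As deposited, the RNA of the main SWI/SNF ATPase, Smarca4, was close to the WT level in KO, 3 core subunits were lower by about the same fold and Smarcd2 was higher. After rescaling, Smarca4 was lower too (log2 change -0.54). Of its 9 tested genes, 4 fell (Smarce1, Smarcb1, Smarcc1 and Arid1a), 1 rose (Smarcd2) and 4 did not pass (Smarca4, Smarcc2, Arid1b and Arid2). The median log2 change was -0.10. Among all genes tested, 38.0% were higher and 40.4% lower. After rescaling, 7 of the 9 were lower, where 59.1% of all genes tested were, and Smarcd2 was the only higher gene.

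The ATPase that drives the complex is either SMARCA4 or SMARCA2 (BRM), never both. Smarca4 (ENSMUSG00000032187, mm10 chromosome 9, 21616169 to 21704230, plus strand) was at 23.8, 24.2 and 23.7 FPKM in WT and 23.1, 22.2 and 22.2 in KO. Every KO value lay under every WT value, but by 1.06-fold (log2 change -0.086, SE 0.0366, adjusted p = 0.0653). That difference passed in limma-voom on recovered reads (adjusted p = 0.0391), with no minimum mean (0.0485) and after rescaling (log2 change -0.54). Smarca2 (ENSMUSG00000024921, chromosome 19, 26605050 to 26778322, plus strand) had 0.584, 0.441 and 0.547 FPKM in WT and 1.15, 1.18 and 1.09 in KO, from 330 and 603 reads. Its groups were well apart, at 2.17-fold, yet its mean stayed under 1 FPKM, so it was not in the test. In the fit with no minimum mean its adjusted p was 0.00236. Smarca4 remained by far the more abundant ATPase per gene length: Smarca2 made up 2.14 ± 0.316% of the pair's summed FPKM in WT and 4.82 ± 0.197% in KO.

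The common core of the complex contains SMARCB1 (SNF5), SMARCE1 (BAF57) and SMARCC1 (BAF155). Smarcb1 was at 23.3, 23.9 and 22.9 FPKM in WT and 11.1, 12.3 and 11.3 in KO, a 2.02-fold fall (log2 change -0.95, SE 0.0495, adjusted p = 1.59e-06). Smarce1 was at 9.06, 8.05 and 9.27 FPKM in WT and 3.67, 3.50 and 3.94 in KO, a 2.38-fold fall (log2 change -1.06, SE 0.0745, adjusted p = 8.08e-06). The FPKM of Smarcb1 was thus near that of Smarca4 in WT and under it in KO. That comparison depends on the summed lengths of all annotated exons, 7930 bases for Smarcb1 and 6475 for Smarca4, so it does not rank the genes by abundance. Smarcc1 was at 6.20, 6.70 and 6.42 FPKM in WT and 2.67, 2.84 and 3.36 in KO, a 2.18-fold fall (log2 change -0.91, SE 0.0826, adjusted p = 3.25e-05). No KO library reached the lowest WT library for any of these genes. Groups did not overlap in 80.6% of all genes tested. After rescaling, which can only deepen a fall, the log2 changes were -1.40, -1.46 and -1.29. Smarce1 has a processed copy, Smarce1-ps1, so a small share of its reads may be assigned to the copy.

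Smarcc2 (BAF170), which can take the place of SMARCC1 or pair with it, did not fall with it. Its 3 WT values were 2.79, 2.32 and 2.19 FPKM and its KO values 2.94, 3.51 and 2.75, which overlap (log2 change 0.24, SE 0.104, adjusted p = 0.0646). The difference passed without WT replicate 1 (0.32, adjusted p = 0.0356) and in limma-voom on recovered reads (0.34, adjusted p = 0.0253), and its sign turned after rescaling (-0.10). Together the pair summed to 8.87 ± 0.231 FPKM in WT and 6.02 ± 0.376 in KO, and the share of Smarcc1 was 72.6 ± 3.15% in WT and 49.1 ± 5.23% in KO.

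The BAF60 place is filled by SMARCD1, SMARCD2 or SMARCD3, of which SMARCD2 is needed for neutrophil granule formation. Smarcd2 (ENSMUSG00000078619, chromosome 11, 106263179 to 106272972, minus strand) was at 8.77, 9.56 and 10.4 FPKM in WT and 16.4, 19.7 and 20.3 in KO, a 1.96-fold rise (log2 change 0.90, SE 0.0941, adjusted p = 7.22e-05). The rise held after rescaling (log2 change 0.47, adjusted p = 0.00198). The neutrophil markers given above were also higher in KO, but so were 38.0% of all genes tested, and a link was not tested. Smarcd1 lay under the minimum mean, at 0.823, 0.683 and 0.787 FPKM in WT and 0.322, 0.0835 and 0.221 in KO, from 107 and 25 reads. Smarcd3, with 0.0707 ± 0.0443 and 0.186 ± 0.0734 FPKM, shares 48.2% of its exonic bases with other genes, chiefly Chpf2, and its 15 and 36 reads are uncertain. Smarcd2 was the dominant paralogue in both genotypes, with 91.9 ± 1.40% of the summed level in WT and 97.9 ± 1.12% in KO. The sum of all 3 was 10.4 ± 0.790 FPKM in WT and 19.2 ± 2.02 in KO.

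The ARID subunits set the type of complex, ARID1A and ARID1B in canonical BAF and ARID2 in PBAF. Arid1a was at 4.63, 5.21 and 5.25 FPKM in WT and 3.81, 4.23 and 3.95 in KO, a 1.26-fold fall (log2 change -0.27, SE 0.0727, adjusted p = 0.0111). Arid1b (1.16 ± 0.0655 and 1.02 ± 0.151 FPKM, adjusted p = 0.340) and Arid2 (1.67 ± 0.0419 and 1.83 ± 0.169 FPKM, adjusted p = 0.373) overlapped between genotypes. After rescaling, Arid1b and Arid2 were lower, at log2 changes of -0.34 and -0.22, which for Arid2 is a turn of sign.

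**Figure D2:**
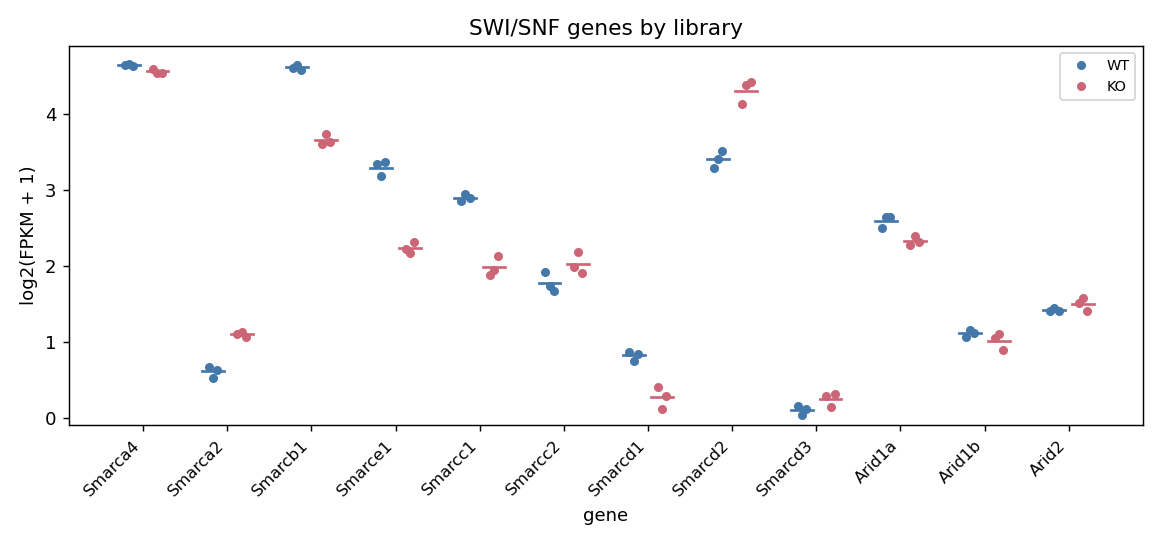
Level of the 12 SWI/SNF genes in each library as log2(FPKM + 1); points are libraries, lines are means of 3, blue is WT and red is KO. As deposited, Smarca4 is nearly level between genotypes, Smarcb1, Smarce1 and Smarcc1 lie lower in KO, and Smarcd2 and the weakly expressed Smarca2 lie higher.

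A ratio of paralogues within a library does not depend on how libraries are scaled, so 7 ratios were compared, on log2 values with 0.01 FPKM added to each term. With 3 libraries against 3, the two-sided exact permutation p cannot go under 0.1, and adjusted over the 7 ratios the smallest value was 0.140, reached by 5 of them. The 5 were those whose KO and WT values did not overlap. Smarca4 over Smarca2 was 40.8, 54.9 and 43.4 in WT and 20.1, 18.8 and 20.4 in KO, a 2.30-fold lower ratio. Smarcc1 over Smarcc2 was 2.22, 2.89 and 2.94 in WT and 0.910, 0.811 and 1.22 in KO, lower by 2.75-fold. Smarcd2 over Smarcd1 went the other way, from 10.6, 14.0 and 13.2 in WT to 50.8, 236 and 92.0 in KO, 7.85-fold higher, with a wide KO spread and 3 to 13 reads of Smarcd1 per KO library. Arid1a plus Arid1b over Arid2 was 3.70 ± 0.215 in WT and 2.76 ± 0.142 in KO, 1.34-fold lower. This is a ratio of RNA levels, and the amounts of canonical BAF and PBAF were not measured. Chd2 over Chd1 was 0.256 ± 0.00673 in WT and 0.466 ± 0.0294 in KO. Arid1a over Arid1b (4.33 ± 0.148 and 3.97 ± 0.585, exact permutation p = 0.400) and Chd4 over Chd3 (27.2 ± 11.6 and 29.7 ± 8.77, exact permutation p = 0.800) overlapped. No ratio was formed for Smarca5 and Smarca1, since Smarca1 was listed at 0 everywhere.

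**Figure D3:**
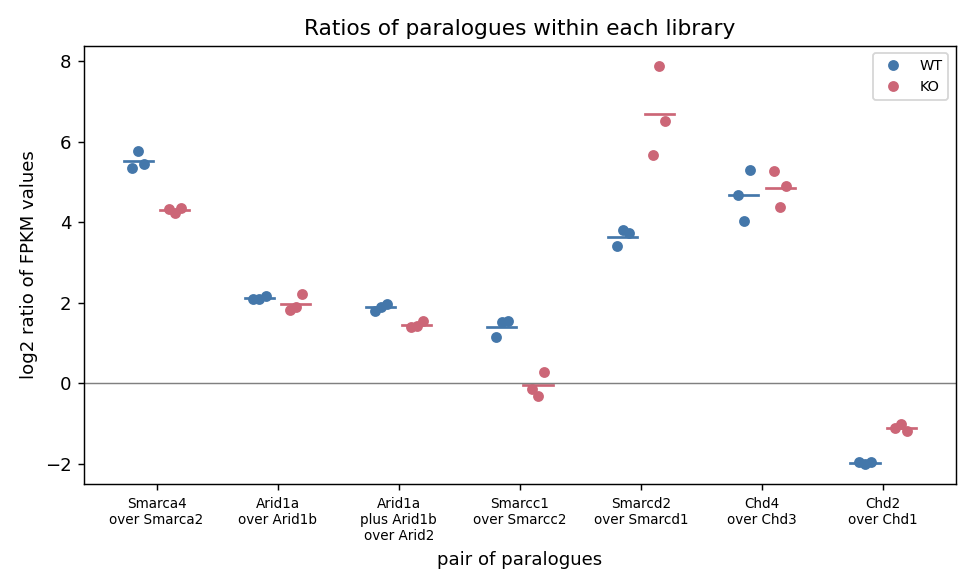
Log2 ratio of the FPKM values of 7 pairs of paralogues in each library, with no offset added; points are libraries, lines are means of 3, blue is WT and red is KO. The Smarca4, Smarcc1 and ARID1-to-ARID2 ratios lie lower in KO, the Smarcd2 and Chd2 ratios higher, and the other 2 overlap.

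All 4 tested CHD genes passed, 3 of them lower (Chd7, Chd1l and Chd1) and 1 higher (Chd4, which did not pass after rescaling). Among all genes tested, 78.4% passed. Chd7, an enhancer-bound remodeller, showed the steepest fall of the 4: 4.78, 4.81 and 4.78 FPKM in WT and 1.32, 0.929 and 1.10 in KO, 4.29-fold (log2 change -1.46, SE 0.0871, adjusted p = 3.33e-06). It lies on chromosome 4, 8690406 to 8867659, plus strand (ENSMUSG00000041235). The WT libraries were almost equal, and all KO libraries lay far under them. Chd1l (ALC1), a remodeller that poly(ADP-ribose) activates at DNA breaks, was at 4.24, 4.94 and 4.43 FPKM in WT and 1.51, 1.22 and 1.52 in KO, a 3.20-fold fall (log2 change -1.20, SE 0.0884, adjusted p = 1.07e-05). Chd1, which binds histone H3 methylated at lysine K4 near active promoters, was at 3.64, 3.67 and 3.59 FPKM in WT and 2.01, 2.04 and 2.43 in KO, a 1.68-fold fall (log2 change -0.55, SE 0.0786, adjusted p = 0.000403). After rescaling, which can only deepen a fall, the log2 changes were -1.78 for Chd7, -1.53 for Chd1l and -0.90 for Chd1.

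Chd4 (Mi-2β), the main ATPase of NuRD, was at 4.32, 4.40 and 4.96 FPKM in WT and 6.04, 5.85 and 5.73 in KO, a 1.29-fold rise that turned after rescaling (log2 change 0.31, SE 0.0688, adjusted p = 0.00443, and -0.086, adjusted p = 0.262, rescaled). Its paralogues were scarce. Chd3 had 0.187 ± 0.0732 and 0.210 ± 0.0635 FPKM, and Chd5, a neural member, had no read in WT and 8 reads in KO. Chd4 therefore made up 96.0 ± 1.65% of the summed NuRD ATPase level in WT and 96.2 ± 1.53% in KO.

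Further CHD genes were under the minimum mean. Chd9 was at 0.626, 0.569 and 0.582 FPKM in WT and 0.115, 0.0910 and 0.180 in KO, 4.60-fold apart on 306 and 56 reads, and Chd8, a regulator of β-catenin target genes, was at 0.347 ± 0.0130 and 0.137 ± 0.0372 FPKM. Chd6 went the other way, at 0.416, 0.423 and 0.420 FPKM in WT and 0.770, 0.877 and 0.769 in KO. In none of the 3 did the genotypes overlap, as in 36.6% of all genes above 0 but under the minimum mean. Chd2 overlapped, at 0.946, 0.912 and 0.932 FPKM in WT and 0.929, 1.01 and 1.06 in KO, and shares 19.3% of its exonic bases with other genes. Chd3os had 7 reads in WT and none in KO.

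INO80 showed the largest log2 change of the 23 tested genes and also changes in opposite directions. Ino80e, an accessory subunit found in animals, fell 5.92-fold, from 10.4, 10.6 and 10.4 FPKM in WT to 2.06, 1.56 and 1.68 in KO (log2 change -2.05, SE 0.0813, adjusted p = 3.84e-07). Ino80e (ENSMUSG00000030689) lies on chromosome 7, 126850960 to 126862377, minus strand, and shares 16.4% of its exonic bases with Doc2a and Hirip3. Doc2a was listed at 0 in all libraries, and Hirip3 was at 5.49 ± 0.492 FPKM in WT and 2.91 ± 0.303 in KO, and as it is not stated whether counting used strand, reads in the shared stretch may belong to either gene. Ino80e had 3589 reads in WT and 503 in KO, and how many of them lie in the shared stretch was not tested.

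Ino80c (IES6), a conserved subunit of the nucleosome-binding module, was at 16.2, 15.2 and 16.9 FPKM in WT and 8.76, 9.15 and 9.54 in KO, a 1.76-fold fall (log2 change -0.75, SE 0.0583, adjusted p = 1.38e-05). Ino80b (IES2), which stimulates the ATPase, was at 7.21, 6.79 and 7.65 FPKM in WT and 11.9, 11.0 and 9.99 in KO, a 1.52-fold rise (log2 change 0.54, SE 0.0764, adjusted p = 0.000405). This rise did not pass after rescaling (0.12, adjusted p = 0.188). The ATPase gene Ino80 itself was weak and overlapped, at 0.659, 0.471 and 0.427 FPKM in WT and 0.598, 0.516 and 0.670 in KO. Ino80d was at 0.747 ± 0.0170 and 0.890 ± 0.0411 FPKM, without overlap, as in 36.6% of all genes above 0 but under the minimum mean. The opposite-strand Ino80dos was at 0.470 ± 0.0922 and 0.396 ± 0.133 FPKM, sharing 31.9% of its exonic bases with Ino80d and Ndufs1.

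**Figure D4:**
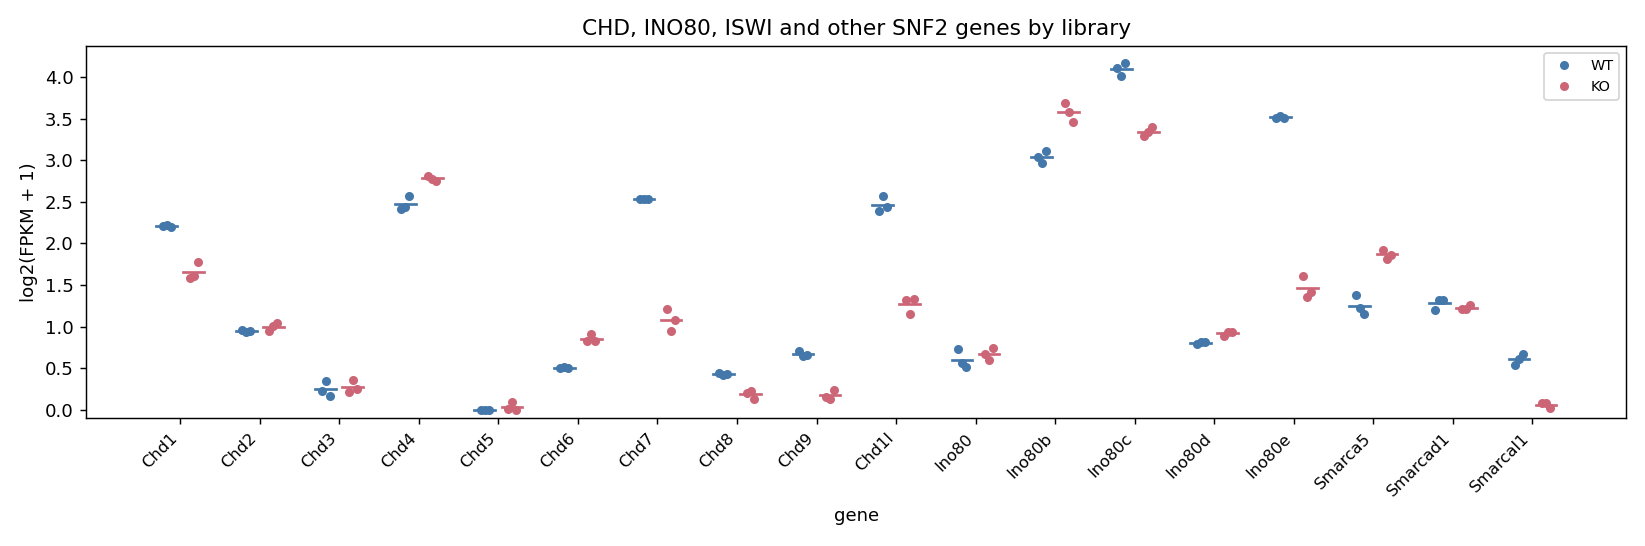
Level of the CHD, INO80, ISWI and other SNF2 genes in each library as log2(FPKM + 1), without Smarca1 at 0 and the opposite-strand transcripts; points are libraries, lines are means of 3, blue is WT and red is KO. Ino80e, Chd7 and Chd1l show the widest gaps, with KO lower, while Chd4, Ino80b, Smarca5 and Chd6 lie higher in KO.

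ISWI was represented by Smarca5 (SNF2H) alone, since its paralogue Smarca1 (SNF2L) was listed at 0. Smarca5, the motor of the ACF, CHRAC and RSF complexes, was at 1.60, 1.34 and 1.22 FPKM in WT and 2.79, 2.53 and 2.63 in KO, a 1.91-fold rise (log2 change 0.62, SE 0.0871, adjusted p = 0.000396, and 0.31, adjusted p = 0.0163, rescaled). Smarcad1, which restores silent chromatin after replication, overlapped at 1.43 ± 0.110 and 1.34 ± 0.0415 FPKM (adjusted p = 0.525), but was lower after rescaling (-0.33, adjusted p = 0.00490). Smarcal1, an annealing helicase of stalled replication forks, had 0.453, 0.531 and 0.594 FPKM in WT and 0.0546, 0.0613 and 0.0135 in KO. It was not in the test, and its 136 and 9 reads correspond to a 12.2-fold lower level in KO.

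The further ARID genes encode DNA-binding proteins outside SWI/SNF. Of those tested, 1 rose, 2 fell and 2 did not pass, where 38.0% of all genes tested rose and 40.4% fell. Arid5a, known for binding and stabilising inflammatory mRNAs such as Il6, was at 2.77, 2.98 and 2.75 FPKM in WT and 7.15, 6.92 and 7.13 in KO, a 2.49-fold rise (log2 change 1.07, SE 0.0612, adjusted p = 2.58e-06), the largest rise among the 23. Arid5b, a partner of the demethylase PHF2, was at 4.17, 4.16 and 4.17 FPKM in WT and 3.39, 2.38 and 2.79 in KO, a 1.46-fold fall (log2 change -0.43, SE 0.103, adjusted p = 0.00615). Arid3a (Bright), a factor of B cell and haematopoietic development, fell 2.39-fold from 1.43, 1.41 and 1.40 FPKM to 0.618, 0.615 and 0.542 (log2 change -0.60, SE 0.0744, adjusted p = 0.000190). Arid3a reached the minimum mean of the test through WT alone. Each of these genes had groups that did not overlap, as had 80.6% of all genes tested. Arid5a stayed higher after rescaling (log2 change 0.69), which can only deepen the falls of Arid5b and Arid3a. Arid4a and Arid4b, which work with the Sin3 deacetylase complex, overlapped at 3.15 ± 0.425 and 3.35 ± 0.349 FPKM and at 1.81 ± 0.101 and 1.93 ± 0.0712 FPKM, and their small positive changes turned after rescaling (-0.29 and -0.25). Arid3b lay under the minimum mean, at 0.731 ± 0.121 and 1.13 ± 0.0561 FPKM. Its groups did not overlap, as in 36.6% of all genes above 0 but under the minimum mean.

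Of the 17 genes under the minimum mean, 2 of them at 0, 9 had groups that did not overlap, where 36.6% of all 12024 genes above 0 and under the minimum did so. When genes were tested with no minimum mean, 38 remodelling genes entered, with 8 higher and 17 lower. That adds Smarca2, Chd6 and Arid3b to the higher genes and Smarcal1, Chd9, Smarcd1, Chd8, Chd3os and Smarca4 to the lower ones. In the same fit 22.1% of 21132 genes were higher and 27.3% lower.

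Other subunits of the same complexes were taken from a list of 68 genes, of which 51 were tested: 13 rose, 25 fell and 13 did not pass, with a median log2 change of -0.13. After rescaling, 5 were higher and 39 lower. Over all genes tested, 38.0% were higher and 40.4% lower as deposited, and 22.8% and 59.1% after rescaling, so the counts by complex, on 7 to 14 genes each, are given as descriptions only. Of 9 INO80 partners, 5 fell and 2 rose. Those that fell include the paired AAA+ ATPases that INO80 shares with SRCAP and TIP60, Ruvbl1 at 113 ± 1.64 FPKM in WT and 27.3 ± 2.37 in KO (4.13-fold, log2 change -2.01, adjusted p = 9.10e-08) and Ruvbl2 at 485 ± 3.38 and 198 ± 1.95 FPKM (2.46-fold, log2 change -1.29, adjusted p = 4.20e-09). Ruvbl2 shares 15.4% of its exonic bases with other genes. The INO80 subunits Nfrkb and Actr5 rose 1.72-fold and 1.54-fold, rises that did not pass after rescaling (adjusted p = 0.0607 and 0.445).

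Among 11 tested NuRD partners, 7 fell, 1 rose and 3 did not pass. Of all genes tested, 40.4% fell and 38.0% rose, and 59.1% were lower after rescaling. The falls of Mta3 (4.26-fold, 2.60 ± 0.295 to 0.610 ± 0.128 FPKM, adjusted p = 2.45e-05) and Mta2 (1.78-fold, 29.2, 30.0 and 28.8 FPKM to 15.8, 17.6 and 16.0, adjusted p = 4.78e-06), scaffold subunits that bind the deacetylases, went against the direction of Chd4 as deposited, but after rescaling Chd4 was at -0.086 and both were negative too (-1.43 and -1.25). Mta3 reached the minimum mean through WT alone. The deacetylase Hdac1 rose 1.16-fold, from 32.9 ± 1.58 to 38.1 ± 1.38 FPKM (adjusted p = 0.00498), and was lower after rescaling.

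SWI/SNF partners gave 2 rises, 4 falls and 4 that did not pass among 10 tested, where 38.0% of all genes rose and 40.4% fell. Phf10, a PBAF subunit, fell 1.90-fold (12.7 ± 0.432 to 6.64 ± 0.148 FPKM, adjusted p = 3.81e-06) and Brd9, which marks the non-canonical complex, fell 1.48-fold (27.8 ± 2.09 to 18.8 ± 0.979 FPKM, adjusted p = 0.000152). Dpf2, of canonical BAF, rose 1.24-fold (adjusted p = 0.00135, lower after rescaling), and Actb, which is also the cytoskeletal actin, rose 2.18-fold (adjusted p = 4.27e-09).

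Of 7 tested ISWI partners, 3 rose, 2 fell and 2 did not pass, where 38.0% of all genes rose and 40.4% fell. Baz2a (TIP5), the NoRC subunit that silences ribosomal DNA repeats, rose 5.19-fold, from 0.460, 0.416 and 0.356 FPKM in WT to 2.23, 2.14 and 2.02 in KO (adjusted p = 6.64e-06), while its paralogue Baz2b fell 2.57-fold (3.23 ± 0.0968 to 1.26 ± 0.102 FPKM, adjusted p = 1.83e-05). Baz2a reached the minimum mean of the test through KO alone. The CHRAC histone-fold pair also parted: Chrac1 rose 1.81-fold (73.4 ± 1.44 to 133 ± 3.49 FPKM, adjusted p = 2.21e-07) and Pole3 fell 1.28-fold (59.5 ± 1.24 to 46.4 ± 1.80 FPKM, adjusted p = 8.05e-05). Both Baz2a and Chrac1 stayed higher after rescaling, at log2 changes of 0.93 and 0.38.

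Of 14 tested subunits of SRCAP and TIP60, which deposit H2A.Z and acetylate histones, 5 rose, 7 fell and 2 did not pass. Of all genes tested, 38.0% rose and 40.4% fell. Actr6 fell 2.07-fold (9.66 ± 0.477 to 4.68 ± 0.271 FPKM, adjusted p = 8.98e-06) and Dmap1 1.75-fold (23.0 ± 0.686 to 13.1 ± 2.75 FPKM, adjusted p = 0.00111). Yeats4 (GAS41), a reader of acetylated histones, rose 1.70-fold (32.7 ± 3.18 to 55.6 ± 4.39 FPKM, adjusted p = 8.84e-05), and Ing3 rose 1.70-fold as well (3.18 ± 0.150 to 5.41 ± 0.626 FPKM, adjusted p = 0.000418). Yeats4 and Ing3 stayed higher after rescaling (log2 changes 0.29 and 0.24), which can only deepen the falls of Actr6 and Dmap1.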

How the data were processed

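RNA-seq was done on 6 libraries, 3 WT and 3 KO, made by Smart-seq2 and Nextera XT per the labels' protocols. The authors deposited FPKM values per gene, and the submitters' processing notes name CASAVA, bcl2fastq, STAR 2.5.3a, mm10 and DESeq2 1.18.1. Counter, annotation and strand setting: not given in the sources used here. All 21132 genes above 0 gave whole reads within 0.001, 16481 at their GENCODE M21 exonic length and 4651 at a searched length, where read numbers (of the genes named, Actr6, Arid4b, Arid5b, Baz2a, Brd9, Chd1, Chd8, Chd9, Nfrkb, Ruvbl2, Smarcc2, Smarcd1, Yeats4) are the smallest possible. That length sums all annotated exons, so levels compared between genes depend on it.

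Genes whose mean reached 1 FPKM were tested on log2(FPKM + 1) with limma 3.58.1 (R 4.3.3), linear model of genotype, mean-variance trend, two-sided, Benjamini-Hochberg over 9108 genes, threshold 0.05. Ratios used an exact permutation test. Python 3.11.15 was used for summaries and plots. The script was tested on simulated data. Positions and overlaps are from GENCODE M21 (GRCm38, equal to mm10).

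Genes were chosen by symbol. Every gene of the rule is accounted for, and of each partner list the 2 largest rises and 2 largest falls with an adjusted p under 0.05 are named. The genes and lists were chosen with earlier results of these data known. Alternatives were pseudocount, minimum mean, scaling, trend, replicate block and each library left out. The limma-voom fit and the summing of Smarce1 with its copy were added after seeing the data. Of the erythroid and B cell marker lists, 1 gene each is not reported here and was left out of the sums.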

Additional observations from a re-analysis of the deposited data

How the results depend on the processing

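Of the 23 tested remodelling genes, 14 kept their direction and side of the threshold under every alternative that tested them. With libraries rescaled to equal sums, 3 remodelling genes were higher and 17 lower, and the signs of Arid2 (-0.22), Arid4a (-0.29), Arid4b (-0.25), Chd4 (log2 change -0.086) and Smarcc2 (-0.10) turned. By complex, rescaling gave 7 lower for SWI/SNF, 0 higher for CHD, 0 higher for INO80, 1 lower for ISWI and other SNF2 and 4 lower for the further ARID genes. Partners were 5 higher and 39 lower, and all genes 2074 higher (5383 lower). A minimum mean of 5 FPKM left 8 of the 23 in the test, with 3 higher and 4 lower: 2 lower for SWI/SNF and 0 lower for CHD, while none of the ISWI, other SNF2 and further ARID genes was left (0 higher, 0 lower). It gave 7 higher partners, and 2072 higher and 2383 lower genes in all, from fewer genes tested. No minimum mean gave 8 higher and 17 lower: 2 higher for SWI/SNF, 2 higher and 6 lower for CHD, 1 lower for ISWI and other SNF2, 2 higher for the further ARID genes, and 5769 lower genes in all. Limma-voom on recovered reads gave 2 higher SWI/SNF genes.

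Leaving out each library gave 1 to 2 higher SWI/SNF genes (2 without WT replicate 1) and a log2 change in the Chd4 over Chd3 ratio of -0.12 to 0.48, negative without WT replicate 2 or KO replicate 1, so that ratio has no direction here. The cause of these moves was not tested, beyond the number of genes tested. Same-numbered libraries did not deviate together (correlations 0.00946, -0.0118 and -0.0166), so the numbers do not pair them. With the replicate block, 5 remodelling genes were higher and 11 lower, as without it, and partners numbered 12 higher and 24 lower. Depth limits Chd5, Chd3os, Smarcal1, Smarcd1 and Smarcd3, with under 40 reads in at least 1 genotype.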

Other observations

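Smarce1 and its processed copy Smarce1-ps1 differed in direction. The copy (chromosome 8, 41657593 to 41658669, minus strand) had 5, 5 and 1 reads in the WT libraries and 29, 24 and 19 in KO (0.229 ± 0.152 and 1.81 ± 0.392 FPKM), so it reached the minimum mean of the test through KO alone and is given here without a test. Reads of the copy were 0.115 to 0.649% of the summed reads in WT and 5.31 to 8.50% in KO. With the reads of both summed, the WT level was 2.21-fold that of KO, against 2.38-fold for Smarce1 alone.

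Summed over all 40 rows, the remodelling genes came to 157 ± 1.38 FPKM in WT and 129 ± 0.551 in KO. SWI/SNF genes made up 83.7 ± 0.772 and 71.0 ± 2.38 FPKM of these sums. The summed FPKM of a whole library was higher in KO (649611 to 653819, against 463683 to 475654 in WT). Those sums include the 6 neutrophil markers, at 299.95 to 315 FPKM in WT and 71369.5 to 72764 in KO. The median log2 change of all genes tested was -0.02 as deposited and -0.41 after rescaling. That median follows from the scaling, so it does not show which scaling suits the typical gene.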
